A study of Mus musculus with 24 samples.

Results

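The 9 transcription factor genes described here, which mark body regions, were followed through 17 peak lists of cultured mouse fibroblasts. They are Tbx2, Tbx3, Tbx4, Tbx5, Tbx15 and Tbx18 of the T-box family, and the homeobox genes Pitx1, En1 and Emx2. These 9 genes were chosen by name from 22202 protein-coding genes, and each was taken as its gene body with 10 kb on each side on the mm9 genome. Chromatin immunoprecipitation with sequencing (ChIP-seq) had been made for histone H3 trimethylated at lysine 4 (H3K4me3, a mark of active start sites; 7 lists), for histone H3 acetylated at lysine 27 (H3K27ac, a mark of active promoters and enhancers; 7 lists) and for the homeodomain factor Prrx1 (3 lists, WT cells only). Mouse embryonic fibroblasts (MEF) of C57BL/6 mice came from embryos of E10 to E13, MMTV-CAF, the FVB/NJ fibroblasts, were grown out of MMTV-PyMT mammary tumours, and wound-healing fibroblasts (wound cells) of C57BL/6 mice came from dorsal wounds at day 10. Every culture carried the papillomavirus genes E6 and E7. WT stands for control cells (SgNS), SG for cells in which Prrx1 had been deleted with a guide RNA, and KI for MEF that were read as those of the 129S-Prrx1tm1Jfm/Mmmh mutant mice. The study describes these mice as backcrossed to C57BL/6, with lacZ inserted into the homeodomain. KI and WT MEF therefore came from different embryos, and which parts of the embryos were taken is not given in the sources used here. Each group had 1 library, so no value below has a replicate spread and no difference was tested. Strain and fibroblast type cannot be told apart for MMTV-CAF.

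T-box and homeobox factors bind DNA and give cells of the embryo a positional identity, and connective tissue fibroblasts keep part of this code in the adult. Tbx5 is known for the forelimb, Tbx4 and Pitx1 for the hindlimb, and Tbx2 and Tbx3 for the limb margins and the mammary gland. Tbx15 and Tbx18 are known for dermis, somites and girdles, Emx2 for the shoulder blade, forebrain and urogenital tract, and En1 for ventral limb ectoderm, midbrain and a lineage of dorsal dermal fibroblasts. A wide H3K4me3 region over a start site is commonly found at genes of cell identity. On mm9 the genes lie at chr11:85646053-85655450 (Tbx2), chr5:120120678-120134733 (Tbx3), chr11:85699924-85729599 (Tbx4), chr5:120284672-120335227 (Tbx5), chr3:99044304-99158182 (Tbx15), chr9:87597635-87626095 (Tbx18, minus strand), chr13:55926415-55937553 (Pitx1, minus strand), chr1:122498995-122505873 (En1) and chr19:59533180-59539847 (Emx2). Distances below run along transcription from the upstream-most coding start site of a gene.

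In the 3 WT fibroblast types, the same 6 genes (Tbx2, Tbx3, Tbx15, Tbx18, En1 and Emx2) had an H3K4me3 region over a coding start site, and Tbx4, Tbx5 and Pitx1 had none. The widest region differed by type, being that of Tbx15 in MMTV-CAF (18013 bp), Emx2 in MEF (13099 bp) and Tbx3 in wound cells (6776 bp). In WT wound cells Emx2 (6415 bp) and En1 (6232 bp) were nearly as wide, and Tbx3 was of like width in WT MEF (6593 bp). After guide RNA deletion of Prrx1 the same 6 genes stayed marked in each type, and 17 of 18 widths were within 1.5 times the WT width, as were most widths over all genes (shares below). The number of H3K27ac summits changed by at least 1.5 times at 5 of 6 genes compared in SG MEF (48.3% of all genes compared), 2 of 5 in SG MMTV-CAF (52%) and 4 of 5 in SG wound cells (58.6%). With lists of equal size these counts were 1 of 3 (48%), 0 of 3 (50%) and 4 of 5 (57.5%), and nothing is read from so few genes. In KI MEF there was a wider Tbx15 region than in WT MEF (8902 against 2560 bp), a narrower Emx2 region (3977 against 13099 bp, though still at the 96.2 percentile of the KI list), no Pitx1 signal, and weak regions at Tbx4. The KI lists also held fewer and weaker entries than those of WT MEF, as given with the comparison below.

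The sequences below are shown because they hold the few Prrx1 summits at these genes, and 2 H3K27ac summits at Tbx15 and Tbx4 that were in the KI list and not in the WT list of MEF. They were read from the reference genome (NCBIM37, the same build as mm9, of C57BL/6J) on the strand of the gene, and capitals mark TAAT or ATTA, the core word of many homeodomain factors read on either strand. A window reaches 100 bp to each side of the summit. It was cut where it met an untranslated region, so that Tbx18 and Emx2 are shown only upstream of their start sites; the upstream part of the Tbx18 window of MMTV-CAF falls within the one shown, and the Tbx3 window is not shown because its summit lies in an exon.
Tbx15 in WT MMTV-CAF, Prrx1 summit at -19.7 kb, chr3:99037879-99038079, plus strand: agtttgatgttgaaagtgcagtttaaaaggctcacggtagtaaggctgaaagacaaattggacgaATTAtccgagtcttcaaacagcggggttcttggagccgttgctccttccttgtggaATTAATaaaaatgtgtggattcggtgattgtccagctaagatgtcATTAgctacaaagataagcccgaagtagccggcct
Tbx15 in WT MMTV-CAF, Prrx1 summit at 10.78 kb, chr3:99068360-99068560, plus strand: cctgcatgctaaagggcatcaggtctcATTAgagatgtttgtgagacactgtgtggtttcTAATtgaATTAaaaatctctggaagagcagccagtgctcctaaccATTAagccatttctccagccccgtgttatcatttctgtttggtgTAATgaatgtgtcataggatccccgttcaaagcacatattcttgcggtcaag
Tbx15 in WT MMTV-CAF, Prrx1 summit at 88.77 kb, chr3:99146352-99146552, plus strand: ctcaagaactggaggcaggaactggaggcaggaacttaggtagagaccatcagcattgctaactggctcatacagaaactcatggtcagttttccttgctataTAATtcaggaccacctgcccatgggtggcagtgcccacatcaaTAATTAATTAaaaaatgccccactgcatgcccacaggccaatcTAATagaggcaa
Tbx18 in WT wound cells, Prrx1 summit at -0.07 kb, chr9:87626096-87626267, minus strand: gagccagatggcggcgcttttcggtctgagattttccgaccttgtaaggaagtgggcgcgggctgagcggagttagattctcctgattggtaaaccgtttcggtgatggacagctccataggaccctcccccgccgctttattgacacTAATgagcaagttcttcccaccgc
Emx2 in WT MMTV-CAF, Prrx1 summit at 0.02 kb, chr19:59533096-59533179, plus strand: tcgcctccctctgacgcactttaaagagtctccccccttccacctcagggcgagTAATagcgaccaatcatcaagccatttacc
Emx2 in WT wound cells, Prrx1 summit at 10.66 kb, chr19:59543738-59543938, plus strand: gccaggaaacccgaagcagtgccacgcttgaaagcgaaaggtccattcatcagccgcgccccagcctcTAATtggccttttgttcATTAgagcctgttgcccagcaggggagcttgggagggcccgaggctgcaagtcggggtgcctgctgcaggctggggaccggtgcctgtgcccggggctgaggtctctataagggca
Tbx15 in KI MEF, H3K27ac summit at 7.72 kb, chr3:99065304-99065504, plus strand: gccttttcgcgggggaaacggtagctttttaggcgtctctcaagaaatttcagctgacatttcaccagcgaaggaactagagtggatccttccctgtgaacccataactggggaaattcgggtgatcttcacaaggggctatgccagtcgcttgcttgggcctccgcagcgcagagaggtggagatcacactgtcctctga
Tbx4 in KI MEF, H3K27ac summit at 2.47 kb, chr11:85702294-85702494, plus strand: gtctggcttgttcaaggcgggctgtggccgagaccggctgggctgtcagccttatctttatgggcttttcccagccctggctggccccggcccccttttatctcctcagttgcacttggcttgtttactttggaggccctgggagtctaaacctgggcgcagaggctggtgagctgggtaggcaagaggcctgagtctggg
All 8 Prrx1 windows, taken at their full 201 bp, held TAAT or ATTA, with 1 to 6 occurrences (both words counted, overlaps included). Such a word was present in 86.1% of all 8000 summit windows of the MMTV-CAF list and in 82.9% of all 5698 of the wound list. The longer word TAATTA was in 2 of the 5 MMTV-CAF windows (the Tbx15 window at 88.77 kb and the Emx2 start site), against 35.4% of that list, and in 1 of the 3 wound windows (Tbx3), against 41.9%. Both H3K27ac windows held neither word. The Emx2 window at 10.66 kb was the richest in G and C of the 8 (62.7%, with a list median of 43.8%). The 3 Tbx15 windows had 43.3% to 46.8%, and the median of their list was 45.8%.

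Beside the counts over these genes stand those over all 22202 protein-coding genes. A region over a coding start site was listed for 6 of the 9 genes in every library except KI MEF, where it was listed for 4 (Tbx4, Tbx15, Tbx18 and Emx2). Over all genes the share was 52.6% in WT MEF, 39.6% in KI MEF, 50.8% in SG MEF, 52% in WT MMTV-CAF, 52.5% in SG MMTV-CAF, 54.1% in WT wound cells and 54.8% in SG wound cells. When a region within 1 kb of a start site was enough, 7 of 9 genes counted in the MEF and wound libraries and 6 of 9 in both MMTV-CAF libraries. The same share over all genes was 55.2%, 50%, 53.7%, 54.3%, 54.8%, 57.5% and 57.7% in that order of libraries. With 9 genes these counts lie near the shares of all genes, and nothing is read from them. The widths differed between libraries, whereas the genes marked over a start site differed only in KI MEF. The genes that counted within 1 kb but not over a start site were Pitx1 in WT and SG MEF and both wound libraries, and Tbx2, Tbx3 and En1 in KI MEF.

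Regions over 4 kb were listed for 2 genes in WT MEF and 2 in SG MEF (Tbx3 and Emx2 in both), 1 in KI MEF (Tbx15), 5 in each MMTV-CAF library (all marked genes but Tbx2), 3 in WT wound cells (Tbx3, En1 and Emx2) and 2 in SG wound cells (Tbx3 and Emx2). With the widest 5% of each list in place of 4 kb, the count was 3 in WT MMTV-CAF, 4 in SG MMTV-CAF and 2 in KI MEF, and the same in the other lists. The share of all genes with such a region was 4.97% in WT MEF, 1.48% in KI MEF, 3.56% in SG MEF, 15% in WT MMTV-CAF, 12.7% in SG MMTV-CAF, 4.79% in WT wound cells and 8.51% in SG wound cells. Widths are therefore not on 1 scale across types, and ranks of a gene within its own list are given below for the widths compared between types.

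**Figure D1:**
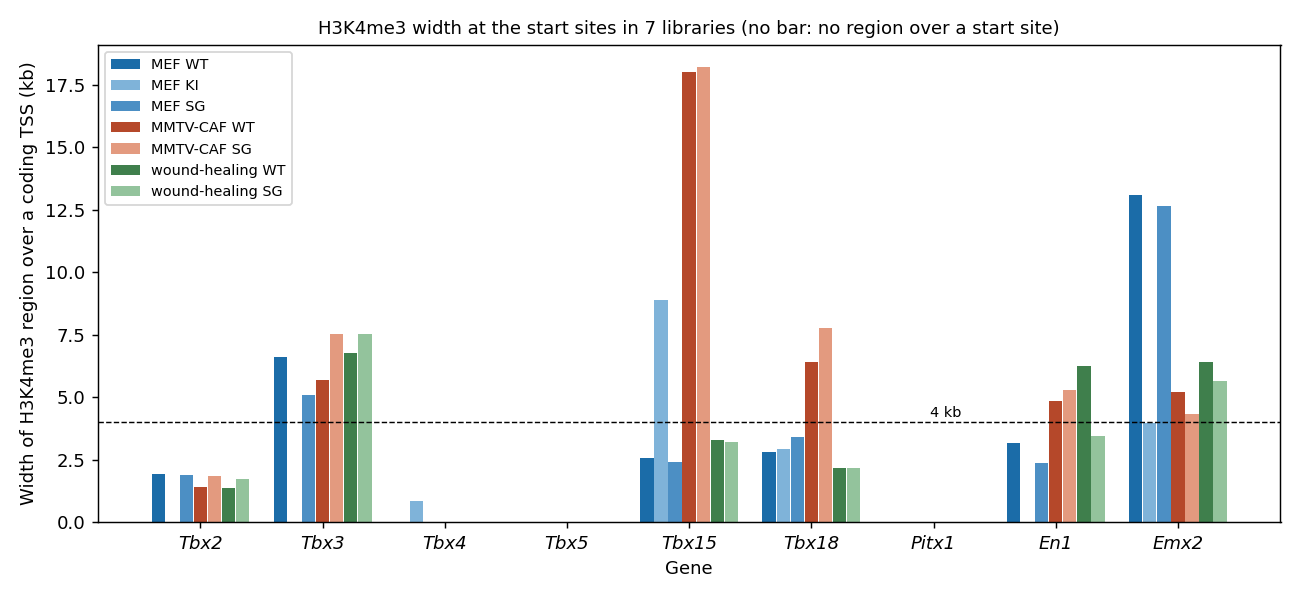
Width in kb of the widest H3K4me3 region over a coding start site (vertical axis) for the 9 genes in 7 libraries; a bar is 1 library, a missing bar means no region over a start site, and the dashed line is 4 kb. Tbx15 reaches 18013 and 18193 bp in MMTV-CAF, and Emx2 13099 and 12642 bp in WT and SG MEF.

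Tbx5, Tbx4 and Pitx1, the genes of limb type, had no region over a start site in any WT list, although Pitx1 was marked just beside one. Tbx5, the forelimb gene, had no region over its start site and no H3K27ac or Prrx1 summit in any list; the single entry in its window was a region of 552 bp in SG wound cells, at -3.59 to -3.04 kb from the start site, with a -log10 p of 4.75. Its neighbour Tbx3, 149.9 kb away, was marked in the same cells. The 1 kb around the Tbx5 start site was also poor in CpG (observed over expected 0.121, the 10.1 percentile of all genes), whereas the other 8 genes lay between 0.512 (Tbx4) and 0.821 (Tbx3), and the median of all genes was 0.554.

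Pitx1, a hindlimb and pituitary factor, was listed in WT and SG MEF and in wound cells, and in neither KI MEF nor MMTV-CAF. Its regions lay within the gene and began 48 bp (WT MEF), 69 bp (SG MEF), 160 bp (WT wound cells) and 64 bp (SG wound cells) downstream of the inner coding start site at 4767 bp, so that none overlapped a start site. They were 4003 bp wide in WT MEF (fold over input 6.12), 3958 bp in SG MEF (fold 5.92), 1378 bp in WT wound cells (fold 7.69, followed by further regions of 2067 and 1162 bp) and 6046 bp in SG wound cells (fold 6.72). H3K27ac summits numbered 3 in WT MEF, 5 in SG MEF, 4 in WT wound cells and 4 in SG wound cells, and all of these lists had a summit at 5.18 to 5.65 kb. KI MEF, WT MMTV-CAF and SG MMTV-CAF each had 0 regions and 0 H3K27ac summits in the whole window. The KI MEF thus differed from both other MEF libraries at this gene.

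Tbx4, also a hindlimb gene, lies 44.5 kb after Tbx2 and showed the opposite distribution among MEF. Near its 3 coding start sites, KI MEF had 4 narrow regions of 499, 747, 850 and 253 bp, with fold values of 2.32 to 2.97 and -log10 p of 4.0 to 5.54. The region of 850 bp lay over the coding start site at 3641 bp. KI MEF also had 3 H3K27ac summits, at 1.96 kb (-log10 p 10.2), 2.47 kb (11.77; sequence above) and 8.79 kb (11.13). Of the other 6 libraries, only SG wound cells had a region there, 460 bp wide at 8.61 kb, and 0 had an H3K27ac summit there. All libraries but KI MEF shared a narrow region past the end of the gene, beginning at 38.36 to 38.84 kb and 381 to 1101 bp wide, with an H3K27ac summit there only in SG MMTV-CAF (39.05 kb, -log10 p 14.59). The Tbx4 region over a start site in KI MEF was narrow for its list, at the 8.1 percentile of the marked genes.

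**Figure D2:**
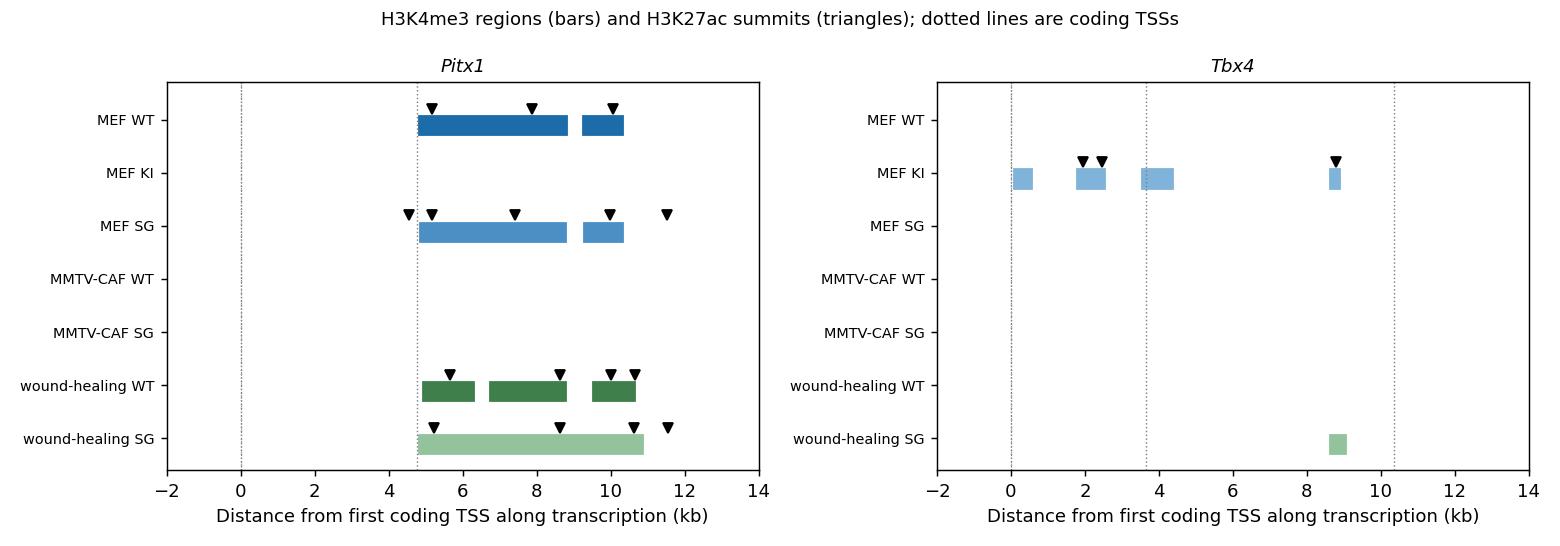
H3K4me3 regions (bars) and H3K27ac summits (triangles) at Pitx1 and Tbx4 in 7 libraries, by distance in kb from the upstream coding start site along transcription; dotted lines are coding start sites. Pitx1 is empty in KI MEF and both MMTV-CAF libraries, and Tbx4 holds regions and summits near its start sites in KI MEF.

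Tbx2 and Tbx3, repressors of the limb margin and mammary field, were marked in all 3 types and differed in width. Tbx2 had narrow regions over its start site of 1921 bp in WT MEF, 1899 bp in SG MEF, 1399 and 1837 bp in WT and SG MMTV-CAF, and 1355 and 1731 bp in WT and SG wound cells. These ranked at the 8.9 to 41.2 percentile of the marked genes. In KI MEF a region of 267 bp ended 3 bp short of the Tbx2 start site. A second Tbx2 region lay past the gene, between 10.5 and 12.68 kb, in all 7 libraries, and its fold was above that at the start site in every library but WT and SG MEF, most in MMTV-CAF (8.78 in WT and 10.81 in SG, against 4.24 and 4.96). An H3K27ac summit sat in it at 11.94 to 12.02 kb in SG MEF, both MMTV-CAF libraries and SG wound cells. WT MEF, KI MEF and WT wound cells had 0 H3K27ac summits in the Tbx2 window.

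Tbx3 carried a region of over 5 kb in every library except KI MEF: 6593 bp in WT MEF, 5090 bp in SG MEF, 5699 and 7516 bp in WT and SG MMTV-CAF, and 6776 and 7534 bp in WT and SG wound cells. Only 122 of 11680 marked genes were wider in WT MEF and 106 of 12012 in WT wound cells, against 1260 of 11541 in WT MMTV-CAF. In KI MEF the mark was split into regions of 906 bp and 3414 bp, the nearer of which began 118 bp from a coding start site, so that Tbx3 did not count as marked there. SG MEF also had 2 regions around the upstream start site, and counted as marked because the larger reached the inner start site at 349 bp. Tbx3 had H3K27ac summits in every library: 3, 4 and 5 in WT, KI and SG MEF, 2 and 6 in WT and SG MMTV-CAF, and 6 and 3 in WT and SG wound cells. The strongest summit had a -log10 p of 70.7 in WT MEF, 113.6 in SG MEF and 8.2 in KI MEF. Summits upstream of the start site lay within the overlapping gene Gm2301, and ChIP-seq does not assign them to a strand. A Prrx1 summit was listed in WT wound cells, in an exon at 1.34 kb, with a -log10 p of 4.5.

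Tbx15, a gene of dermis and limb girdles, had the largest difference in width between WT types in bp, while by rank within each list its span (61.3 to 99.9 percentile) was close to that of Tbx18 (53.6 to 92.7). Its region over the start site was 2560 bp in WT MEF, 2416 bp in SG MEF, 3299 and 3190 bp in WT and SG wound cells, 18013 and 18193 bp in WT and SG MMTV-CAF, and 8902 bp in KI MEF. Only 11 of 11541 marked genes were wider in WT MMTV-CAF, 10 of 11665 in SG MMTV-CAF, and 1 of 8796 in KI MEF, whereas 4518 of 11680 were wider in WT MEF and 2041 of 12012 in WT wound cells. The annotated gene begins further upstream than its coding start site, and a separate region about 13 kb upstream was listed in all 7 libraries, 3236 bp wide in WT MMTV-CAF, 2564 bp in KI MEF and 1152 bp in WT MEF. Fold over input at the start site did not follow the width, with 7.99 in WT MMTV-CAF, 6.6 in WT MEF and 4.41 in KI MEF. Among the marked genes of each list these folds were at the 23.3, 79.6 and 71.8 percentile, so folds are not on 1 scale across libraries.

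Near the Tbx15 start site, H3K27ac also set KI MEF and MMTV-CAF apart from the other libraries. The window held 3 summits in WT MEF, 2 in SG MEF, 10 in KI MEF, 8 in WT MMTV-CAF, 8 in SG MMTV-CAF, 3 in WT wound cells and 7 in SG wound cells. Of the 10 summits in KI MEF, 7 had a summit of WT MMTV-CAF within 500 bp, and 1 each had one in WT MEF, SG MEF and WT wound cells. Across the whole KI MEF list these shares were 64.2%, 69.5%, 65.8% and 60.9%. The summit at 7.72 kb (-log10 p 36.44 in KI MEF; sequence above) lay at 7.71 kb in WT MMTV-CAF and 7.73 kb in SG MMTV-CAF, in an intron, and was in no other list. When summits within 12.5 kb of each other were joined into clusters and ranked by summed -log10 p, the Tbx15 cluster was at rank 50 of 13518 in KI MEF and 1227 of 18506 in WT MMTV-CAF, against 7070 of 18313 in WT MEF. Of the 7 summits of SG wound cells, 5 stood between 85.48 and 91.1 kb, where WT wound cells had 2 (85.9 and 90.15 kb) and WT MMTV-CAF had 1 (85.76 kb). Prrx1 had 3 summits at Tbx15 in WT MMTV-CAF, at -19.7 kb within the neighbouring gene Wars2, and at 10.78 and 88.77 kb in introns, with -log10 p of 5.75, 6.93 and 5.83. The nearest Prrx1 summit was at -263 kb in WT MEF and at -143 kb in WT wound cells.

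**Figure D3:**
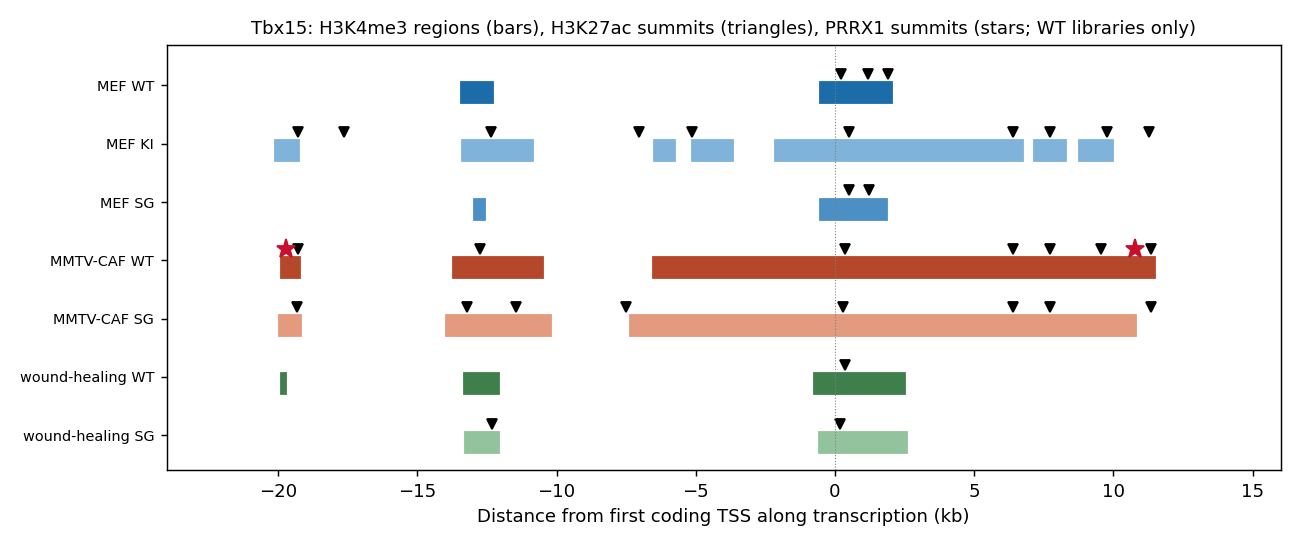
H3K4me3 regions (bars), H3K27ac summits (triangles) and Prrx1 summits (stars, measured in WT libraries only) around the Tbx15 start site in 7 libraries, by distance in kb along transcription. WT and SG MMTV-CAF and KI MEF share summits at 6.38 to 6.41 kb and 7.71 to 7.73 kb and wide regions, and WT MEF, SG MEF and both wound libraries do not.

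Tbx18, which acts in somites, epicardium and the hair follicle dermis, was also widest in MMTV-CAF. The region was 6390 and 7753 bp in WT and SG MMTV-CAF, 2790, 2925 and 3422 bp in WT, KI and SG MEF, and 2179 and 2152 bp in WT and SG wound cells. Its percentile among the marked genes was 92.7 and 97.6 in WT and SG MMTV-CAF, 68.8, 85.4 and 87.2 in WT, KI and SG MEF, and 53.6 and 42.4 in WT and SG wound cells. WT MMTV-CAF had 6 H3K27ac summits in the window and SG MMTV-CAF 8; the other 5 libraries had 1 each, at 0.83 to 1.24 kb. Tbx18 was the only one of the 9 genes with a Prrx1 summit near its start site in more than 1 type, at 51 bp in WT MMTV-CAF (-log10 p 11.96) and at -72 bp in WT wound cells (5.39).

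En1, a marker of a dorsal dermal lineage, was marked in all types and widest in WT wound cells. Its region was 3175 bp in WT MEF, 2367 bp in SG MEF, 4848 and 5280 bp in WT and SG MMTV-CAF, 6232 bp in WT wound cells and 3440 bp in SG wound cells. Among the marked genes of each list, 160 of 12012 were wider in WT wound cells, 2033 of 11541 in WT MMTV-CAF and 2573 of 11680 in WT MEF. In KI MEF a region of 1915 bp began 326 bp downstream of the start site. A second region about 5 kb upstream was listed in all 7 libraries, and had a fold of 8.27 and 13.5 in WT and SG MMTV-CAF and of 3.44 to 4.52 in the other 5. The En1 window held no Prrx1 summit, and the nearest was at 65.4 kb in MEF, -45 kb in MMTV-CAF and -52.1 kb in wound fibroblasts.

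Emx2, known for the shoulder blade and the urogenital tract, had the widest regions in WT and SG MEF. They measured 13099 and 12642 bp, with 3 of 11680 and 1 of 11276 marked genes wider. Both ran past the gene to 10.66 and 10.69 kb, whereas the region was 5222 and 4324 bp in WT and SG MMTV-CAF, 6415 and 5655 bp in WT and SG wound cells, and 3977 bp in KI MEF. The KI region was still among the wider ones of its list, with 334 of 8796 marked genes wider, against 1650 of 11541 in WT MMTV-CAF and 143 of 12012 in WT wound cells. H3K27ac summits numbered 2 in WT MEF, 2 in KI MEF, 4 in SG MEF, 4 and 2 in WT and SG MMTV-CAF, and 9 and 1 in WT and SG wound cells. The Emx2 start site is close to that of the antisense gene Emx2os, and the marks there cannot be assigned to either. Prrx1 had a summit at 16 bp in WT MMTV-CAF (-log10 p 11.58) and at 10.66 kb in WT wound cells (8.14), and the nearest summit of the MEF list was at -322 kb.

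In total, Prrx1 summits were listed at 3 of the 9 genes in MMTV-CAF (5 summits at Tbx15, Tbx18 and Emx2), at 3 in wound fibroblasts (3 summits at Tbx3, Tbx18 and Emx2) and at 0 in MEF. The share of all genes with a summit in the same kind of window was 22.1% in MMTV-CAF, 16.8% in wound fibroblasts and 7.05% in MEF. With the 3 lists cut to equal size, 2 summits were counted at these genes in MMTV-CAF and 1 in wound fibroblasts. The lists reach below a -log10 p of 5, the cutoff given in the study's methods, and at 5 or more the wound count was 2, without Tbx3. H3K27ac summits were listed at 6 of 9 genes in each WT library and KI MEF, and at 7 in the 3 SG libraries. The share over all genes was 61.6% in WT MEF, 52.4% in KI MEF, 63% in SG MEF, 62% in WT MMTV-CAF, 64.4% in SG MMTV-CAF, 58.3% in WT wound cells and 63% in SG wound cells.

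**Figure D4:**
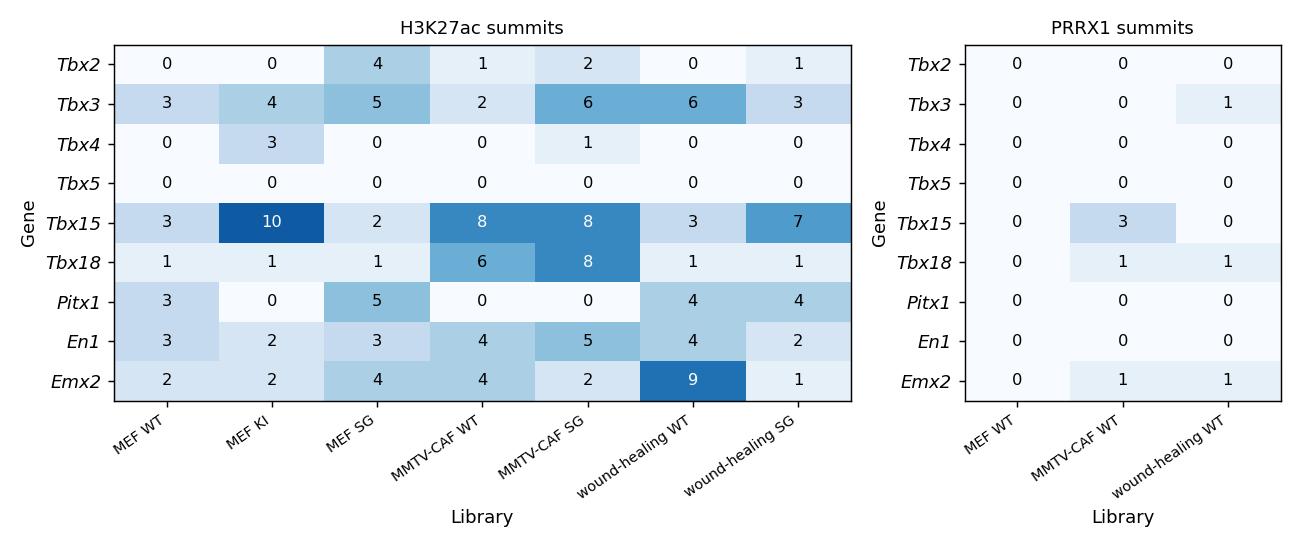
Number of H3K27ac summits (left, 7 libraries) and Prrx1 summits (right, WT libraries) in the window of each gene, with darker blue for more. Tbx15 holds 10 H3K27ac summits in KI MEF and 8 in each MMTV-CAF library, Emx2 9 in WT wound cells, and the MEF column of Prrx1 is 0 throughout.

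Deletion with a guide RNA was compared with WT within each type. In SG MEF, 0 of 6 genes marked in both lists had a width at least 1.5 times lower (background 4.89%) and 0 of 6 at least 1.5 times higher (0.59%). In SG MMTV-CAF the counts were also 0 of 6 lower (5.82%) and 0 of 6 higher (4.88%). In SG wound cells, En1 alone was lower (ratio 0.552; 1 of 6, background 1.67%) and 0 of 6 were higher (11.4%). The median width ratio of the 6 genes was 0.954 in MEF (0.938 over all genes marked in both lists), 1.15 in MMTV-CAF (0.962) and 0.977 in wound fibroblasts (1.13).

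In KI MEF, 3 genes were marked over a start site in both lists. Emx2 was lower (ratio 0.304; 1 of 3, background 23.5%), Tbx15 was higher (ratio 3.48; 1 of 3, background 0.493%), and Tbx18 had a ratio of 1.05, with a median of 0.801 over all genes. The 2 MEF comparisons share the WT list. The KI lists were also smaller and weaker than those of WT MEF: the H3K4me3 list had 13125 regions with a median -log10 p of 9.93, against 16089 and 28.64, and the H3K27ac list had 29325 summits against 44918. The part of this difference in the KI results was not tested. Counted as bases of the window under any H3K4me3 region, Tbx15 went from 3712 to 16908 bp in KI, Tbx4 from 693 to 2349 bp, Pitx1 from 5109 to 0 bp, Emx2 from 13099 to 3977 bp, Tbx3 from 8227 to 4320 bp, Tbx2 from 3329 to 1169 bp, En1 from 4442 to 3113 bp and Tbx18 from 2790 to 2925 bp. By this measure 5 of the 7 genes with bases in both lists changed by at least 1.5 times in KI MEF (36.2% of all genes). In SG MEF 0 of 8 did (7.17%), and in SG MMTV-CAF 3 of 7 (16.9%), with Emx2 lower (7144 to 4324 bp) and Tbx3 (6004 to 9552 bp) and Tbx18 (7009 to 11145 bp) higher. In SG wound cells 1 of 8 did (15.3%), Tbx4 being higher (381 to 1189 bp).

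**Figure D5:**
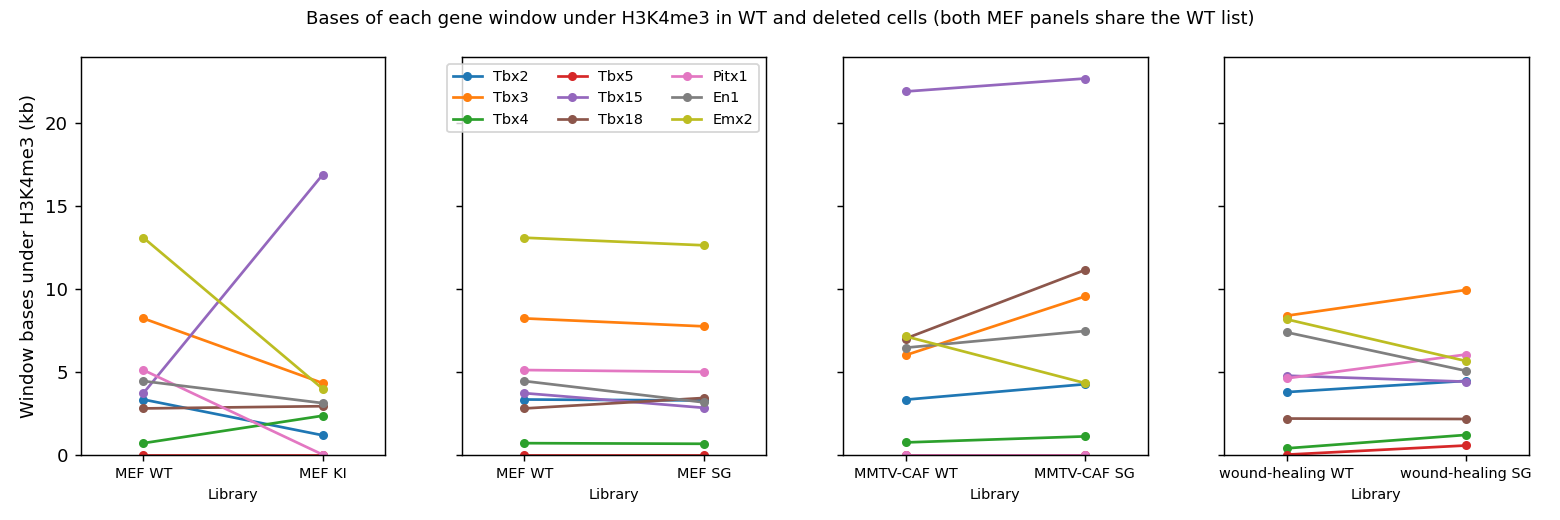
Bases of each gene window under any H3K4me3 region (kb, vertical axis) in WT and deleted cells, 1 panel per pair and 1 line per gene; points are single libraries. In KI MEF, Tbx15 rises to 16908 bp and Emx2 falls to 3977 bp, while in SG MEF Emx2 is at 12642 bp and Tbx15 at 2829 bp.

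The number of H3K27ac summits was compared where the larger list had at least 3 summits in the window, and a change was a factor of at least 1.5. In KI MEF, 2 of 5 genes had fewer (Pitx1 and En1; background 52.8%) and 2 of 5 more (Tbx4 and Tbx15; 14.7%). In SG MEF, 1 of 6 had fewer (Tbx15; 25.8%) and 4 of 6 more (Tbx2, Tbx3, Pitx1 and Emx2; 22.5%). In SG MMTV-CAF, 1 of 5 had fewer (Emx2; 18.3%) and 1 of 5 more (Tbx3; 33.6%). In SG wound cells, 3 of 5 had fewer (Tbx3, En1 and Emx2; 19.5%) and 1 of 5 more (Tbx15; 39.2%). With all lists cut to the size of the smallest, fewer genes could be compared: 1 of 3 changed in SG MEF (Emx2) and 0 of 3 in SG MMTV-CAF, while 3 of 4 changed in KI MEF (Pitx1, Tbx4 and Tbx15; 62.2% of all genes, against 4 of 5 and 67.4% with the full lists) and 4 of 5 in SG wound cells.

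Emx2 in wound cells had the largest drop in summit number, from 9 to 1. Summit numbers count positions and do not measure the amount of H3K27ac. The strongest WT summit at Emx2 had a -log10 p of 47.81. In wound cells Tbx3 went from 6 to 3 summits while its strongest -log10 p went from 45.3 to 82.6. En1 went from 4 to 2 summits and from 24.4 to 17.1. Of its 9 WT summits, 0 had an SG summit within 500 bp, and the only SG summit lay at 1.0 kb (-log10 p 57.41), between WT summits at -0.37 and 2.34 kb. Over the 9 windows together, 10 of 27 WT summits of wound cells (37%) had an SG summit within 500 bp, against 67.7% of the whole list. The same shares were 12 of 15 (80%) against 68.2% in SG MEF, 15 of 25 (60%) against 63.9% in SG MMTV-CAF, and 6 of 15 (40%) against 44.3% in KI MEF. Summits of 1 window are not independent. At Emx2 the H3K4me3 region over the start site was 6415 bp in WT and 5655 bp in SG wound cells, and further WT regions of 505 bp at 8.55 kb and 1254 bp at 9.66 kb were not in the SG list.

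The remaining T-box genes were mostly unmarked. Of 11 (Tbx1, Tbx6, Tbx10, Tbx19, Tbx20, Tbx21, Tbx22, Tbr1, Eomes, Mga and T), 2 had a region over a start site in every library except KI MEF: Mga, which is broadly used, and Eomes, a factor of early mesoderm and lymphocytes. In KI MEF 1 did (Mga). Of 13 limb patterning genes, 6, 6 and 8 were marked in WT MEF, WT MMTV-CAF and WT wound cells, and 4, 6, 5 and 9 in KI MEF, SG MEF, SG MMTV-CAF and SG wound cells. Of 17 girdle, trunk and dermis genes, 7, 6 and 6 were marked in the 3 WT libraries, and 4, 6, 7 and 10 in the deleted ones. The share over all genes was 52.6%, 52% and 54.1% in the 3 WT libraries, in the same order. In the deleted libraries it was 39.6%, 50.8%, 52.5% and 54.8%. Nothing is read from the limb and trunk counts. Meox2, a somite factor, was marked only in MMTV-CAF (5410 bp in WT and 5290 bp in SG). Twist1, a mesenchymal factor, was over 5 kb wide in WT MEF and WT MMTV-CAF, and in WT wound cells a region of 5313 bp lay within 1 kb of its start site without covering it.

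As a check of the labels, 6 to 8 of 8 fibroblast genes had a region over a start site in each library. Of the markers of endothelium, leukocytes, melanocytes and skeletal muscle, 0 of 3 in each list did in any library, and of 5 epithelial markers at most 1 did (Cdh1, up to 783 bp). H3K27ac summits were listed in the windows of 1 to 3 of 3 endothelial, 1 to 2 of 3 leukocyte and 1 to 3 of 5 epithelial markers, and of 0 of 3 melanocyte and 0 of 3 muscle markers, in each library; the part of other cell types in the results was not tested. The Prrx1 gene itself kept a region over its start site in all 7 libraries (4558 to 15484 bp). This does not check the deletion, which is made in the DNA and was not measured by these marks.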

How the data were processed

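ChIP-seq had been made from 24 samples, of which 17 have a peak list; the 7 inputs have none. The authors aligned trimmed reads to mm9 with Bowtie, called peaks with MACS2 against input and deposited 1 list per library. The study describes duplicate Prrx1 ChIP with IgG as a normal control. Whether each list pools the duplicates, and whether the IgG entered the peak calls, is not given in the sources used here. For H3K27ac and Prrx1 the authors deposited summits of 1 bp, each with its −log10 p-value. The deposited H3K4me3 lists hold regions with a fold over input (a ratio), a −log10 p-value, a −log10 q-value and a browser score, of which the score was not used. H3K27ac lists reach down to a −log10 p of 5 and Prrx1 lists to 3. Read depth is unknown, and no interval is given. Library groups came from the sample titles.

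GENCODE vM1 gave the genes on NCBIM37. A gene counted as marked where a region overlapped the start site of a protein-coding transcript, and its widest such region was used. Summits were counted in the gene body with 10 kb on each side. The background is the same count over all 22202 protein-coding genes on chromosomes 1 to 19 and X. Python 3.11.15, pandas 2.3.3 and pysam 0.24.0 were used, and the counting was tested on simulated data. All members are named; of the context lists, genes over 4 kb wide in 1 WT type and unmarked in another are named, except 1 that is not reported here. The members and lists were chosen with earlier results of these data known. Alternatives changed the start sites, flank, threshold, list size and fold.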

Additional observations from a re-analysis of the deposited data

Results flagged for a closer look

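In the results below, the deleted-minus-WT difference went one way in every pair of one fibroblast type and the opposite way in every pair of another. Each rests on 1 library per group, and none of these differences between types was tested.

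For H3K4me3 width over the start site, Tbx2 differed by -22 bp in SG MEF, 438 bp in SG MMTV-CAF and 376 bp in SG wound cells. Tbx3 differed by -1503 bp in SG MEF, 1817 bp in SG MMTV-CAF and 758 bp in SG wound cells. Tbx15 differed by 180 bp in SG MMTV-CAF and -109 bp in SG wound cells. Tbx18 differed by 135 bp in KI MEF, 632 bp in SG MEF, 1363 bp in SG MMTV-CAF and -27 bp in SG wound cells. En1 differed by -808 bp in SG MEF, 432 bp in SG MMTV-CAF and -2792 bp in SG wound cells. Some of these differences are close to none. The width ratio was 0.989 for Tbx2 in SG MEF, 1.01 for Tbx15 in SG MMTV-CAF and 0.988 for Tbx18 in SG wound cells. Over all genes marked in both lists the median ratio was 0.938 in SG MEF, 0.962 in SG MMTV-CAF and 1.13 in SG wound cells.

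For H3K27ac summits, Tbx3 differed by 1 in KI MEF, 2 in SG MEF, 4 in SG MMTV-CAF and -3 in SG wound cells. En1 differed by 1 in SG MMTV-CAF and -2 in SG wound cells.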

How the results depend on the processing

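Of 102 counts recomputed under 18 alternatives listed at the start and 1 added after the data were seen, 88 stayed within 1.5 times the reported count. Here a factor of exactly 1.5 counted as within, whereas for genes it counted as a change. In KI MEF the members marked over a start site went from 4 to 7 with a region within 1 kb and to 2 with a −log10 p of at least 10, and the H3K27ac summits from 22 to 12 at that threshold. With the widest 5% of each list in place of 4 kb, broad members were 2 in KI MEF and 3 in WT MMTV-CAF. With lists of equal size, H3K27ac summits were 16 in SG MMTV-CAF, Prrx1 summits were 2 in WT MMTV-CAF and 1 in WT wound cells, and members with a changed summit number were 1 in SG MEF and 0 in SG MMTV-CAF; with a flank of 50 kb they were 4 in SG MMTV-CAF. At 2 times in place of 1.5 times, 0 widths changed in SG wound cells. With window bases under H3K4me3 in place of the width (the added alternative), 5 members changed in KI MEF and 3 in SG MMTV-CAF. At 50 kb the windows of Tbx2 and Tbx4 overlap. The causes were not tested. The labels carry no replicate numbers to pair by, and a test of SG against WT over the 3 types taken as pairs was not run. Read depth limits every count to an unknown extent.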

Other observations

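Over the 7 H3K4me3 lists, each gene was given a profile of the percentile of its width among the marked genes, with 0 where it had no region, and the 2 protein-coding genes with the smallest Euclidean distance to each marked member were taken. For Tbx3 these were Hoxa6 (distance 3.75) and Hoxb7 (4.17), both homeobox genes, where the median distance of all genes was 217. For Emx2 they were Meis1 (7.37), another homeobox gene, and Hnrnpf (7.81), with a median of 229. Tbx4 was nearest to Il18rap (2.88) and H2-T24 (4.03), but its profile rests on 1 narrow region in KI MEF (8.1 percentile) and is 0 in all other lists. Tbx15 was farthest from its nearest genes, Rps3a (28.8) and Srsf11 (29). The others were Cox16 (9.77) and Ctnnbip1 (11.9) for Tbx2, Rnf168 (19.2) and Lgals3 (21.1) for Tbx18, and Dhrs3 (16) and Bcap31 (16.2) for En1. Tbx5 and Pitx1 had no profile. The median distances depend also on the genes without a region, whose values are 0. They were smaller for the narrowly marked Tbx2 (67.4) and Tbx4 (29.7), so a large median is not read as likeness. These distances are over 7 lists of different and unknown depth, and they carry no test.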
